A study of Mus musculus with 14 samples.

Results

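The 31 genes described here are marker genes of astrocytes, taken as a list of symbols. Of these, 24 are identity genes, which astrocytes of healthy brain express, and 7 are reactive genes (Gfap, Vim, Serpina3n, Lcn2, Osmr, Cd44 and Steap4), which astrocytes raise after injury or inflammation. All 31 were found by symbol among the 55422 entries of the count table, and all 31 had enough counts to be tested in every comparison. The rule that defines the list uses no measured value.

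Every mouse carried TH-Cre, which places Cre recombinase in catecholamine neurons, together with Slc6a2-eGFP/Rpl10a, in which regulatory sequence of the noradrenaline transporter gene drives a ribosomal protein tagged with green fluorescent protein. At 2 to 3 months of age the locus coeruleus (LC), the main noradrenergic nucleus of the brainstem, was infused with P364S mutant human tau in 4 animals (named B, C, L, M) or with the fluorescent protein EYFP as the control in 3 animals (named H, I, K), on a C57Bl/6 background. The sex labels are male for B, L and I and female for C, M, H and K. RNA was sequenced from the total brainstem homogenate (pre-IP) and from the immunoprecipitate (IP) of each animal, which gave 14 libraries. The tagged ribosomes belong to noradrenergic neurons, so astrocyte transcripts in an IP library are transcripts that were not the target of the pull-down. The labels do not name the vehicle of the infused gene, the promoter that drove it or the time between infusion and dissection.

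Astrocytes take up glutamate and GABA from synapses, buffer potassium, carry water and ions at blood vessels, and are joined to each other by gap junctions. When tissue is damaged they add intermediate filaments, raise receptors for inflammatory cytokines and secrete acute-phase proteins, a state called reactivity. In bulk RNA, fewer astrocytes and less RNA per astrocyte cannot be told apart.

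Total counts ran from 41843489 to 65664551 per library. Levels are given as counts per 1000000 counts of the library (CPM), and a gene is said to rise or fall where the quasi-likelihood test of edgeR over all genes gave an adjusted p under 0.05. Within a single fraction, the p-values measure the spread between these animals. In fits over both fractions each library counts singly, and the pairing by animal enters only where the animal is a block. Some libraries stood apart before any astrocyte gene was examined. Animal K, labelled EYFP, had 408 counts of the human tau construct in pre-IP and 398 in IP, against 2 to 18 in the libraries of animals H and I and 3527 or more in tau libraries. Animal M, labelled female, had 674 and 1153 counts of Y-linked genes in pre-IP and IP, with 0 and 21 counts of Xist. The other libraries labelled female had 0 to 4 Y-linked counts and 16 to 120 of Xist. The libraries labelled male had 1096 or more Y-linked counts and 0 of Xist. Both libraries of M thus held Y-linked counts against their sex label, and its IP held Xist counts as well. How this came about is not known, so results between treatments are also given without M. Y-linked counts set tau animals B, L and M and EYFP animal I apart from C, H and K. Sex by counts was therefore not balanced between treatments. The RNA integrity score was 4.2 in the IP of animal I and 7.7 to 9 elsewhere. RNA in the IP of animal B was at 0.1 ng per microlitre, the lowest of all.

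Most identity genes stood above most reactive genes in the homogenate. Per kilobase of exon, so that genes can be compared, the order in EYFP pre-IP libraries was led by Aldoc, an aldolase of glycolysis, at 802 CPM per kb ± 246 (SD, n = 3). Ndrg2 followed at 399.9 ± 26.2 and the calcium-binding protein gene S100b at 286 ± 15.5 CPM per kb, and none of these overlapped the next gene in the order. The filament gene Gfap came next at 133.6 ± 36.9 CPM per kb, overlapping Atp1b2 at 119.4 ± 20.7. From Gfap down to Mlc1, each gene overlapped its neighbour in the order. Among the other reactive genes, Serpina3n ranked 18 of 31 and the remaining 5 took ranks 27 to 31, with the identity genes Cbs and Slc4a4 just above them at 3.88 ± 0.92 and 2.25 ± 0.28 CPM per kb. Serpina3n stood at 14.2 ± 3.62, Vim at 2.15 ± 0.34 and Cd44 at 0.58 ± 0.05 CPM per kb. At the bottom, Lcn2 (0.13 ± 0.09), Steap4 (0.12 ± 0.07) and Osmr (0.05 ± 0.004) overlapped in turn. Every identity gene had at least 13.6 CPM in each of the 14 libraries, so markers of astrocytes were present in both fractions.

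IP against pre-IP asks which transcripts the pull-down kept and which it lost, over all 7 animals. RNA was at 0.1 to 2.8 ng per microlitre in IP libraries and at 11.4 to 29.9 in pre-IP libraries. The part of RNA concentration in these differences was not tested. Of the 31 genes, 7 fell in IP and 1 rose, and all 8 were identity genes. Slc1a2 rose and Fgfr3, Slc6a11, Atp1b2, Sox9, Gja1, Mfge8 and Ndrg2 fell. Of all 18792 genes tested, 31.0% passed, so 8 of 31 astrocyte genes is a share close to that of the genome. Higher calls made up 16.3% and lower calls 14.7% of all genes. The median log2 fold change was -0.35 over the identity genes, with 18 of 24 below 0, and -0.21 over the reactive genes, with 4 of 7 below 0, against -0.00 over all genes tested. Without animal B, C, H, I, K, L or M in turn, 5 to 10 of the 31 genes passed. The lowest count, 5, came without animal C and without animal L. Calls over all genes were also fewer there, at 4304 of 18883 without C and 4291 of 18773 without L. With all animals they were 5828 of 18792.

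Slc1a2 encodes GLT-1, the principal glutamate transporter of the adult brain, and lies on the plus strand of chr2:102658659-102790784 (GRCm38). It stood at 76.7, 65.4 and 61.4 CPM in the pre-IP libraries of animals H, I and K, and at 174.4, 164.7 and 129.3 CPM in their IP libraries. In animals B, C, L and M it stood at 81.3, 68.5, 53 and 61.8 CPM in pre-IP, and at 63.3, 136.2, 110.8 and 132.2 CPM in IP. The IP library was the higher in every animal except B. The gene rose by 0.98 (log2, SE 0.14; adjusted p 0.000177 in edgeR). Among the 24 identity genes it had the highest ratio of IP to pre-IP in 6 of 7 animals and the second highest in animal B. Its ratio exceeded the median ratio of the identity genes by 0.88 to 1.49 log2 units in each animal.

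Slc1a3 encodes GLAST, the other glutamate transporter of astrocytes, and lies on the minus strand of chr15:8634124-8710764. Its levels were 76.6, 64.5 and 71.2 CPM in EYFP pre-IP (H, I and K) and 76.5, 72.3 and 79.5 CPM in EYFP IP. In tau animals (B, C, L and M) they were 82.3, 80.2, 60.9 and 59.8 CPM in pre-IP and 25.2, 59.2, 45.4 and 47.5 CPM in IP. All 4 tau IP libraries were below all 3 EYFP IP libraries, while the pre-IP libraries overlapped. The fold change of IP against pre-IP over all animals was -0.30 (SE 0.16, edgeR adjusted p 0.162). The log2 ratio of Slc1a2 exceeded that of Slc1a3 by 0.92 to 1.49 in every animal.

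A pair of further genes of transmitter and ion handling had positive values without passing. Glul, the glutamine synthetase that turns captured glutamate into glutamine, had a fitted difference of 0.24 (log2, SE 0.13; adjusted p 0.182 in edgeR). Its IP levels were 357.4, 330.9 and 327.6 CPM in animals H, I and K and 178.8, 302.2, 247.9 and 313 CPM in B, C, L and M. Its pre-IP levels were 200.7, 224.3 and 281.1 CPM in EYFP animals and 279.6, 269.5, 226 and 290.2 CPM in tau animals. Each EYFP animal and every tau animal except B had the higher level in IP. Slc4a4, a sodium and bicarbonate cotransporter, had 0.27 (SE 0.13, edgeR adjusted p 0.131). Slc4a4 stood at 28.1, 23 and 22.7 CPM in EYFP pre-IP against 34.6, 39.9 and 30.6 CPM in EYFP IP. In tau animals it stood at 25.3, 24.3, 18.2 and 19.2 CPM in pre-IP against 17.6, 24.3, 17.4 and 28.4 CPM in IP. Thus IP was higher in all EYFP animals, and the tau fractions overlapped.

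The genes with the lowest fold changes were a receptor, a transporter and a pump subunit. Fgfr3, a fibroblast growth factor receptor encoded on the plus strand of chr5:33721674-33737068, stood at 162.2, 129.1 and 177.2 CPM in the pre-IP of animals H, I and K and at 87.8, 65.4 and 98.5 CPM in their IP. In animals B, C, L and M it stood at 118, 105, 151.4 and 192.6 CPM in pre-IP and at 25.4, 38, 48 and 76.8 CPM in IP. No IP library reached any pre-IP library. Fgfr3 fell by 1.26 on the log2 scale (adjusted p 0.000487 in edgeR, SE 0.21), and its ratio ranked 23 or 24 among the 24 identity genes in every animal.

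Slc6a11 encodes GAT-3, the GABA transporter of astrocytes. It stood at 298.9, 304.4 and 429 CPM in EYFP pre-IP and 197.7, 185.1 and 220.9 CPM in EYFP IP. Tau animals had 234.8, 243.5, 313.6 and 305.3 CPM in pre-IP and 56.1, 85.1, 126 and 197.6 CPM in IP. Every IP library lay below every pre-IP library, and the gene fell by 1.01 on the log2 scale (adjusted p 0.0016 in edgeR, SE 0.20). Atp1b2, the astrocyte beta subunit of the sodium pump, stood at 459.4, 420.7 and 582.7 CPM in EYFP pre-IP and 275.2, 257.8 and 389 CPM in EYFP IP. Its tau values were 409.7, 412.8, 482.8 and 582.6 CPM in pre-IP and 150.3, 183.5, 202.6 and 299.7 CPM in IP. It also showed no overlap between fractions and fell by 0.92 on the log2 scale (adjusted p 0.000637 in edgeR, SE 0.16). These were the only 3 of the 31 genes whose fractions did not overlap in CPM, against 9.46% of all genes tested and 5.77% with IP the lower.

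The other 4 genes that fell had smaller values. Sox9, a transcription factor that specifies astrocytes, fell by 0.67 on the log2 scale (adjusted p 0.00438 in edgeR, SE 0.16). Gja1, which encodes the gap-junction protein connexin 43, fell by 0.47 (SE 0.16, edgeR adjusted p 0.031). Mfge8, a secreted protein that bridges dying cells to phagocytes, fell by 0.42 (SE 0.14, edgeR adjusted p 0.0299), and Ndrg2 fell by 0.40 (SE 0.12, edgeR adjusted p 0.0177). The last 3 lost their call when single animals were left out, with edgeR adjusted p up to 0.0982 for Gja1, 0.0867 for Mfge8 and 0.0633 for Ndrg2. With the animal as a block in the fit, 11 of 31 genes passed, against 32.6% of all genes, and Ntsr2 (-0.47, edgeR adjusted p 0.049), Slc7a10 (-0.56, 0.00481) and Gfap (-0.52, 0.0135) were added. The remaining 14 identity genes that did not pass without the block, other than Glul and Slc4a4 above, ran from -0.54 for Slc7a10 to 0.11 for S100b. Among them were Ntsr2, a neurotensin receptor (-0.40, SE 0.20), Cbs, an enzyme of homocysteine metabolism (-0.33, SE 0.16), F3, the tissue factor of clotting (-0.22, SE 0.18), Cldn10, a claudin (-0.21, SE 0.14), and Aldh1l1, an enzyme of folate metabolism (-0.18, SE 0.17).

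**Figure D1:**
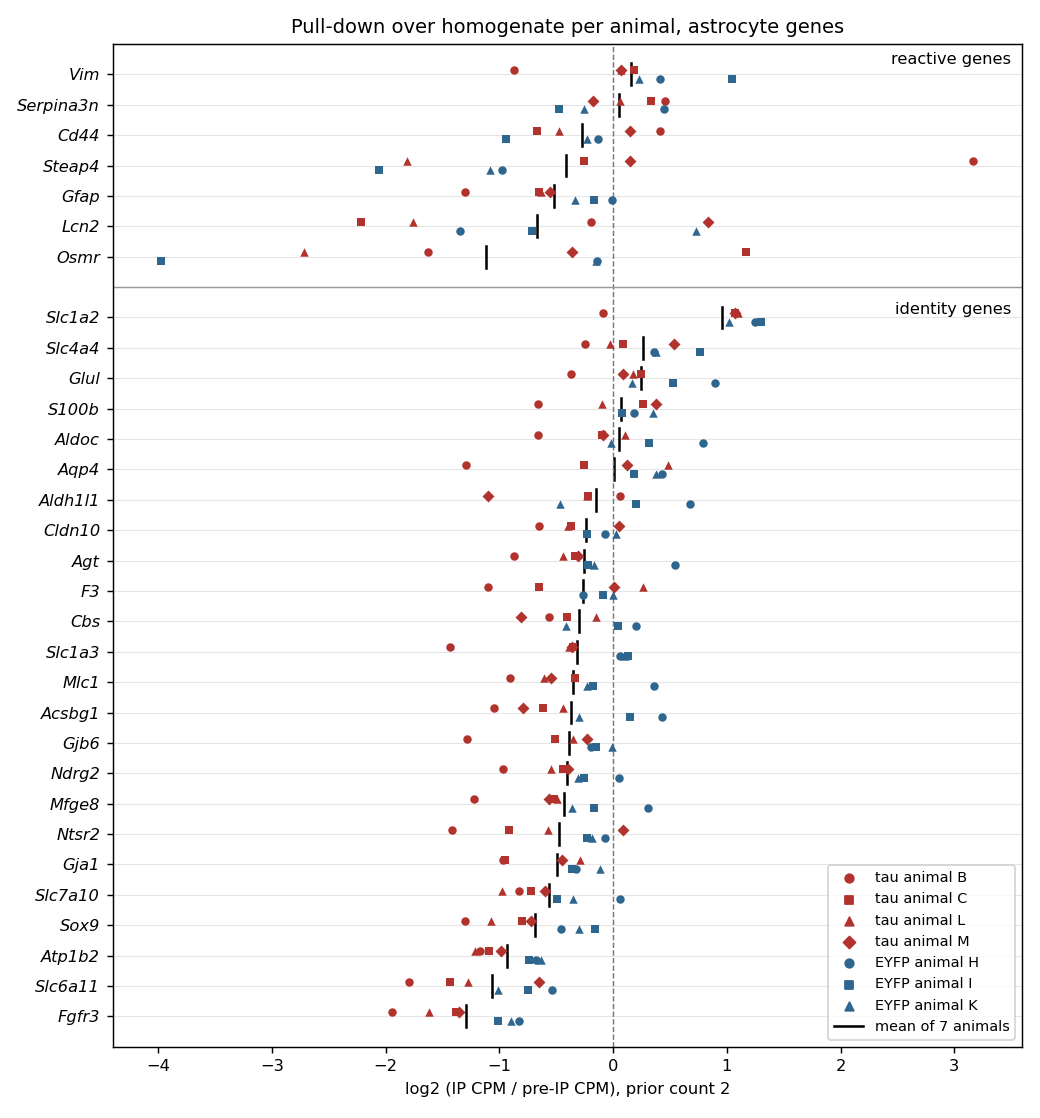
Log2 ratio of IP CPM to pre-IP CPM for each of the 31 genes (rows) in each animal (points, tau in red and EYFP in blue), with black bars at the mean of 7 animals and a dashed line at 0. Slc1a2 lies right of 0 in 6 of 7 animals and Fgfr3 lies left of 0 in all 7, while Osmr, Lcn2 and Steap4 scatter widely.

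The plot of ratios per animal shows the spread among the genes. Within the identity genes the mean log2 ratio ran from -1.29 ± 0.41 (SD, n = 7) for Fgfr3 to 0.96 ± 0.47 for Slc1a2. The ratios had a Spearman rho of -0.45 with the GC percent of the longest transcript over the 20 identity genes that had a transcript sequence, against -0.35 over 18361 genes. Their rho with exon length was -0.00 over 24 genes, against -0.12 over 18661 genes. The points of each such relation share the libraries and their depth.

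None of the 7 reactive genes passed in IP against pre-IP (edgeR, 1 of 7 at an unadjusted p under 0.05, against 41.6% of all genes). DESeq2 and edgeR without a filter each called Gfap, whose adjusted p there was 0.0334 and 0.0347, and limma voom called 0 of the 7. Gfap, the main intermediate filament of astrocytes, encoded on the minus strand of chr11:102887336-102900912, stood at 517.6, 435.9 and 737.1 CPM in EYFP pre-IP and 493.4, 397.5 and 607 CPM in EYFP IP. In animals B, C, L and M it stood at 605.6, 546.2, 451.5 and 742.3 CPM in pre-IP and 203.2, 329.1, 283.7 and 515.5 CPM in IP. IP was the lower fraction in all 7 animals, by more in the tau animals, although the fractions overlapped as groups. The fold change was -0.51 on the log2 scale (adjusted p 0.0608 in edgeR, SE 0.20).

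Vim encodes vimentin, the filament that reactive astrocytes and vessel cells share. It stood at 10.7, 8.38 and 11.5 CPM in EYFP pre-IP and 13.6, 17.8 and 13.9 CPM in EYFP IP, so that each EYFP IP library was above each EYFP pre-IP library. Tau animals had 12, 12, 8.66 and 10.2 CPM in pre-IP and 5.39, 12.9, 8.84 and 10.9 CPM in IP. Only animal B was lower in IP. Over all animals the log2 fold change was 0.18 (SE 0.18, edgeR adjusted p 0.471).

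Serpina3n, a serine protease inhibitor of the acute-phase response, stood at 26.2, 23.8 and 37.8 CPM in EYFP pre-IP and 34.4, 17.5 and 32.8 CPM in EYFP IP. Its tau levels were 32.3, 25.2, 29.1 and 38.1 CPM in pre-IP and 36.6, 30, 29.5 and 34.3 CPM in IP. The 4 groups overlapped, and the fold change of IP against pre-IP was 0.06 (SE 0.17, edgeR adjusted p 0.819). Cd44, a receptor for hyaluronan, stood at 4.35, 3.77 and 3.70 CPM in EYFP pre-IP and 3.79, 1.99 and 3.26 CPM in EYFP IP. In tau animals it stood at 3.58, 4.12, 2.61 and 3.26 CPM in pre-IP and 3.95, 2.44, 1.81 and 3.67 CPM in IP. Those groups overlapped too (log2 fold change -0.21, SE 0.22, edgeR adjusted p 0.507).

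The last 3 reactive genes rested on few reads, given here as counts. Osmr, the receptor subunit for oncostatin M, had 28, 28 and 34 counts in EYFP pre-IP and 38, 0 and 35 in EYFP IP. It had 42, 23, 20 and 44 counts in tau pre-IP and 12, 46, 1 and 29 in tau IP. A count of 0 in the IP of animal I allows up to 3 counts, which covers counting error only, and its fold change of -0.49 had an SE of 0.64.

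Lcn2 encodes lipocalin 2, a secreted iron-siderophore carrier that neutrophils also make. It had 6, 31 and 16 counts in EYFP pre-IP, 2, 18 and 32 in EYFP IP, and 10, 6, 26 and 26 in tau IP. In tau pre-IP it had 12, 40, 108 and 16 counts, so animal L was the highest of the 14 libraries. The 6 neutrophil genes measured summed to 446, 430 and 484 counts in the pre-IP libraries of L, C and I, which had the most Lcn2, and to 170 to 294 in the other 4. S100a8 and S100a9 were highest in those 3 libraries, and Ngp was highest in L and C, with 60 counts in both I and K. Camp, Ltf and Retnlg were highest in C but did not set L and I apart. Camp had 20 counts in K against 18 in L and 12 in I, and Retnlg had 14 in M against 8 in L and 6 in I. Ltf was lowest in I, at 6 counts. In IP the sums did not follow Lcn2, since C had 411 and M 134 with 6 and 26 Lcn2 counts. The part of neutrophils in the Lcn2 counts was not tested. Its fold change of IP against pre-IP was -0.77 (SE 0.61, edgeR adjusted p 0.362).

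Steap4, a metalloreductase induced by inflammatory cytokines, had 20, 6 and 28 counts in EYFP pre-IP and 14, 0 and 14 in EYFP IP. Tau animals had 8, 20, 22 and 23 counts in pre-IP and 84, 14, 4 and 22 in IP. The IP library of animal B alone stood above all others. The fold change of IP against pre-IP was 0.07 (SE 0.74, edgeR adjusted p 0.953), and without animal B it was -0.86.

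**Figure D2:**
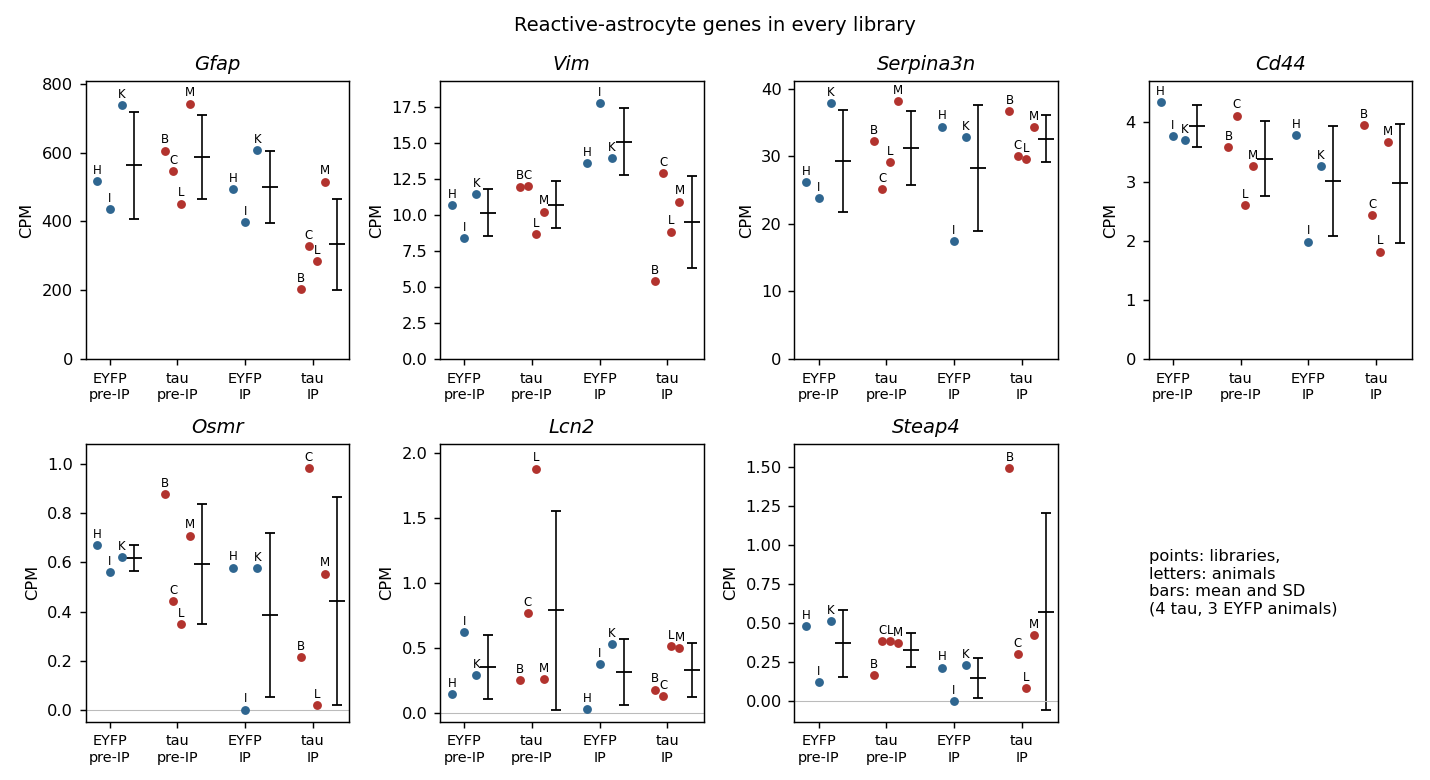
CPM of the 7 reactive genes in every library, by group, on linear axes; points are libraries with the letter of the animal, and bars give the mean and SD of 4 tau or 3 EYFP animals. Tau IP has the lowest mean of the 4 groups for Gfap (332.9 CPM) and Vim (9.52 CPM), and single libraries set the highest values of Lcn2 (L, pre-IP) and Steap4 (B, IP).

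The panels of reactive genes differ in spread. The 4 groups of Serpina3n and of Cd44 overlapped, while the SD of at least 1 group came near its mean for Lcn2 (0.789 ± 0.766 CPM in tau pre-IP), Osmr (0.385 ± 0.333 CPM in EYFP IP) and Steap4 (0.574 ± 0.630 CPM in tau IP). A cytokine that acts through the Osmr and gp130 receptors signals by STAT3, whose binding letters are commonly written TTCNNNGAA, which reads the same on both strands. The 250 bases before the start of 28 members were read from RefSeq promoters (GRCm38.p6). The letters occurred in 1 of 7 reactive genes, Steap4, and in 5 of the 21 identity genes with a promoter (Acsbg1, Agt, Aldoc, Ntsr2 and Slc1a3). They occur in 7.02% of all 32851 promoter windows of that length, and a match is a description and not a site. That share counts windows, while the members are counted as genes, and the 21 identity genes have 27 windows. Steap4 and Slc1a3 are shown because their IP levels in tau animals are described here; capitals mark the matching letters, and both are written 5′ to 3′. The first is on the plus strand at chr5:7960222-7960471, with the match beginning 116 bases before the start. The second is on the minus strand at chr15:8710808-8711057, with the match beginning 96 bases before the start. The motif was chosen after the values of these genes were known.
Steap4: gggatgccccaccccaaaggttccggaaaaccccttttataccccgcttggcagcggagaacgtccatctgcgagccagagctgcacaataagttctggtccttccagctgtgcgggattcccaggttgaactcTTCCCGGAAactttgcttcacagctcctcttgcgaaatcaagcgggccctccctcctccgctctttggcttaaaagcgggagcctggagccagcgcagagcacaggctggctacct
Slc1a3: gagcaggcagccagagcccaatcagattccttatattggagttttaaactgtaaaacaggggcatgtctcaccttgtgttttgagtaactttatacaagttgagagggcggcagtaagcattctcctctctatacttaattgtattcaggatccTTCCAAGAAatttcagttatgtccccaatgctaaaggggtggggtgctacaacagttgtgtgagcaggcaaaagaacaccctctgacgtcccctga

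Tau against EYFP in IP libraries is the comparison that the study's design names. No gene of the 31 passed in edgeR, and none of the 19472 genes tested did (0% called). All 24 identity genes had lower fitted levels in tau IP, with a median log2 fold change of -0.52 and a range from -0.78 for Aqp4 to -0.09 for S100b. Over all genes tested the median was -0.08. At an unadjusted p under 0.05, 9 of the 31 genes were lower and 0 were higher, against 4.06% of all genes with lower values. DESeq2 also called 0 of the 31, while it called 342 of all genes at an adjusted p under 0.05. It had 10 of the 31 at an unadjusted p under 0.05, against 13.9% of all genes. With limma voom 0 of the 31 and 0 of all genes were called, and 18 of the 31 had an unadjusted p under 0.05, against 15.2% of all genes. The reactive genes had a median of 0.16, with 5 of 7 above 0. Gfap (-0.50) and Vim (-0.57) were the 2 below 0. The median was the value of Lcn2 (SE 0.97), a gene of few counts. That median was 0.45 without animal K, but -0.14 without animal I and -0.11 with limma voom, and in both of these 3 of 7 were above 0.

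Aqp4, the water channel of astrocyte endfeet, stood at 94.5, 77.1 and 109.2 CPM in the IP of animals H, I and K and at 24.9, 47.5, 61 and 72.2 CPM in that of B, C, L and M. No tau library reached an EYFP library (log2 fold change -0.78, SE 0.29, edgeR adjusted p 0.342). In pre-IP it stood at 73, 66.2 and 81.3 CPM in EYFP animals and 73.9, 60, 44.9 and 65.2 CPM in tau animals, which overlapped. Slc1a3, with the levels given above, had the smallest p among the 31 genes (-0.69, SE 0.22, edgeR adjusted p 0.319). Acsbg1, an acyl-CoA synthetase of lipid metabolism, stood at 242.4, 199.2 and 276.4 CPM in EYFP IP and 99.5, 145.3, 155.1 and 190.1 CPM in tau IP. Those groups did not overlap (-0.61, SE 0.20, edgeR adjusted p 0.319). In pre-IP its levels were 187.3, 175.9 and 328.3 CPM in EYFP animals and 248.3, 235.8, 216.2 and 324.2 CPM in tau animals, which overlapped.

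Mfge8 stood at 87.6, 61.9 and 62.8 CPM in EYFP IP and at 29, 45.8, 51.5 and 53.2 CPM in tau IP, again without overlap (-0.56, SE 0.21, edgeR adjusted p 0.342). Its pre-IP levels were 73.7, 68.2 and 78 CPM in EYFP animals and 81.7, 69.7, 74.6 and 77.3 CPM in tau animals. In all, 10 of the 31 genes were lower in every tau IP library than in every EYFP IP library, namely Aqp4, Slc1a3, Aldh1l1, Sox9, Glul, Acsbg1, Cbs, Slc4a4, Mfge8 and Vim. Over all genes tested, 9.22% were lower without overlap and 15.6% differed without overlap in either direction. Vim was the 1 reactive gene among the 10 (-0.57, SE 0.27, edgeR adjusted p 0.43).

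The 3 genes with the highest levels per length differed less. Aldoc stood at 3444, 2837 and 3613 CPM in EYFP IP and 1679, 2527, 2510 and 3219 CPM in tau IP (-0.32, SE 0.19, edgeR adjusted p 0.528). Its pre-IP levels were 2075, 2235 and 3540 CPM in EYFP animals and 3207, 2857, 2404 and 3364 CPM in tau animals. Both fractions overlapped between treatments. Ndrg2 stood at 1310, 1111 and 1219 CPM in EYFP IP and 600.3, 922.6, 948.4 and 1184 CPM in tau IP (-0.31, SE 0.19, edgeR adjusted p 0.528). In pre-IP it stood at 1317, 1297 and 1461 CPM against 1420, 1322, 1420 and 1534 CPM. Animal B was the lowest and M reached the EYFP range. S100b stood at 453.2, 439.3 and 594.1 CPM in EYFP IP and 242.8, 459, 405.5 and 647.1 CPM in tau IP (-0.09, SE 0.27, edgeR adjusted p 0.913). Its pre-IP levels were 416.9, 406.1 and 450.1 CPM against 464.6, 406.2, 446.9 and 488.4 CPM. In both fractions of S100b the treatments overlapped.

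Among genes with positive values in tau IP, Steap4 had the smallest p (2.09, SE 1.27, edgeR adjusted p 0.536), and its highest library was the IP of animal B. Serpina3n was next (0.32, SE 0.26, edgeR adjusted p 0.643). Gfap had a value of -0.50 (SE 0.27, edgeR adjusted p 0.503). The values of Osmr, Lcn2, Cd44, S100b and Cldn10 were within 1 SE of 0.

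**Figure D3:**
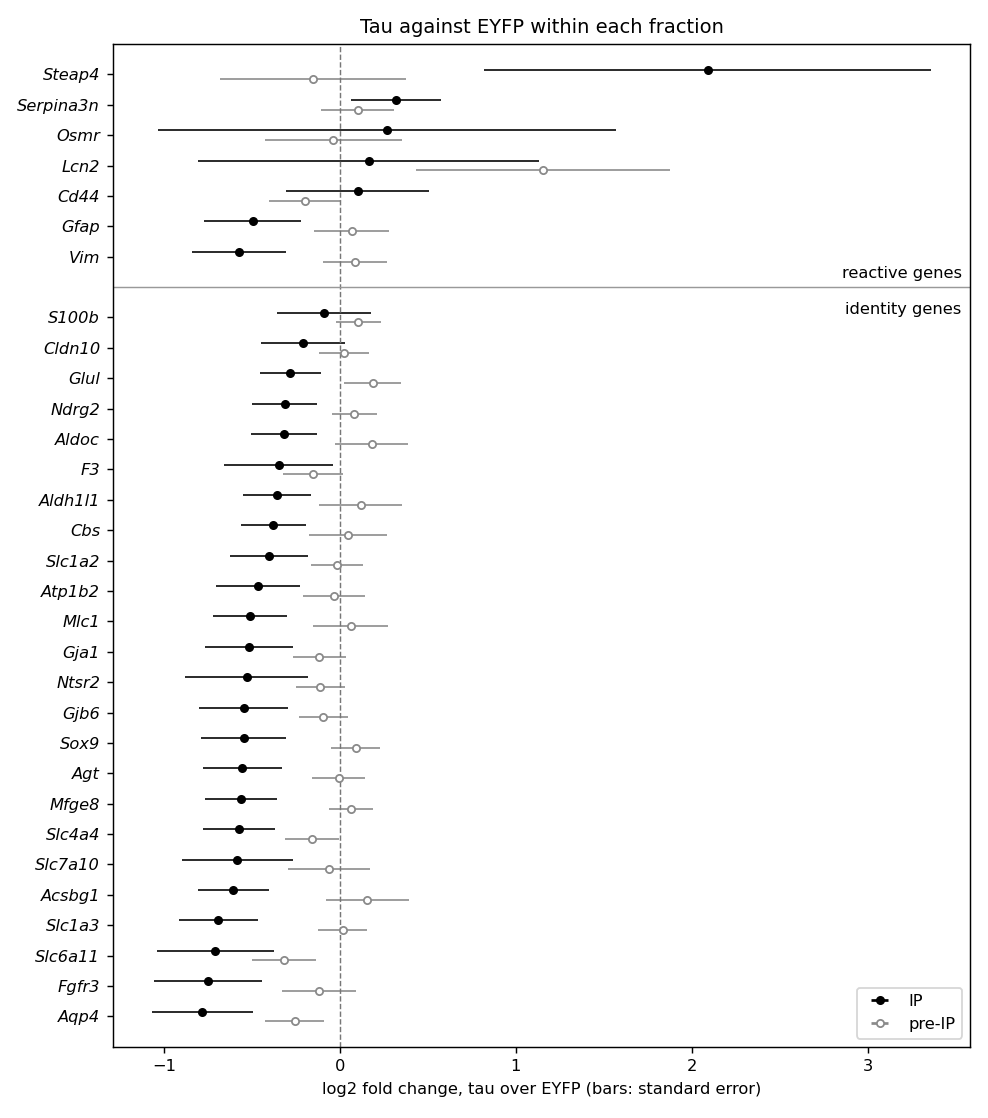
Log2 fold change of tau over EYFP, with its standard error, for the 31 genes in IP (filled points) and in pre-IP (open points). All 24 identity genes lie left of 0 in IP, from -0.78 to -0.09, while in pre-IP 12 lie on each side.

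Other measures moved with this comparison. The 12 genes of noradrenergic neurons summed to 564 to 641.9 CPM in EYFP IP and 1070 to 7168 CPM in tau IP, and 12 of 12 had higher fitted levels in tau IP. All 12 microglial genes and all 11 endothelial genes had lower fitted levels there, with medians of -0.42 and -0.33, as had 11 of 12 oligodendrocyte genes, with a median of -0.41. So had 10 of 12 genes of neurons in general, with a median of -0.44. Lower too were 5 of 6 oligodendrocyte precursor genes (median -0.76) and 8 of 11 mural and fibroblast genes (-0.42). For ependymal and choroid plexus genes it was 10 of 11 (-0.78), and for neutrophil genes 3 of 5 (-0.16). The summed identity genes had 6716 to 8339 CPM in EYFP IP and 3668 to 7502 CPM in tau IP. RNA concentration was 0.7 to 2.8 ng per microlitre in EYFP IP and 0.1 to 0.8 in tau IP. The part of these measures in the astrocyte values was not tested.

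With the doubted libraries left out, the identity median in IP was -0.41 without animal B, -0.41 without K, -0.62 without I and -0.69 without M. The number of identity genes below 0 was 23 of 24 without B and without K, where S100b was above 0, and 24 of 24 without I and without M. The number of the 31 genes at an unadjusted p under 0.05, which was 9 with all animals, was 3 without K, 4 without H, 4 without L, 5 without C, 6 without B, 8 without I and 20 without M. Over all genes that share was 7.76% without H, the lowest, and 17.1% without M, the highest. None of the 31 passed after adjustment in any of these, and without M 128 of all genes did. The libraries carry numbers of up to 11 (animals B, C, H and I) or from 17 (K, L and M), and what the numbers record is not stated. With that range as a covariate, 24 of 24 identity genes were below 0, the median was -0.59 and 19 of the 31 had an unadjusted p under 0.05, against 15.3% of all genes. None passed after adjustment.

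Tau against EYFP in pre-IP libraries asks the same of the whole homogenate. None of the 31 genes passed, 0 had an unadjusted p under 0.05 and 0 were without overlap, against 2.84% and 3.12% of all 19197 genes tested. DESeq2 and limma voom also called 0 of the 31, with 0 at an unadjusted p under 0.05, against 3.23% and 3.47% of all genes. Of the identity genes, 12 were above and 12 below 0, with a median of 0.00 and a range from -0.32 for Slc6a11 to 0.19 for Glul. The even split rested on single animals. Without K, 18 were above and 6 below 0 with a median of 0.13, and 4 of the 31 had an unadjusted p under 0.05, against 3.51% of all genes. Without I, 6 were above and 18 below 0 with a median of -0.044, and without M 9 were above and 15 below 0 with a median of -0.077. Over all genes the median was -0.00 with all animals. Slc6a11 (SE 0.18) and Aqp4 (-0.26, SE 0.17) had the smallest p below 0, and Lcn2 (1.16, SE 0.72) and Glul (SE 0.16) the smallest above 0, each with an edgeR adjusted p of 1.0. Gfap had a value of 0.07 (SE 0.21), Vim 0.09 (SE 0.18) and Serpina3n 0.10 (SE 0.21). A value smaller than its error was not detectable as a change with this number of animals.

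The interaction of treatment and fraction tests whether the pull-down shifted these genes by a different amount in tau and EYFP animals. None of the 31 genes passed in edgeR, and 0% of 20495 genes did. With DESeq2 and with limma voom 0 of the 31 passed as well, against 52 and 0 of all genes. At an unadjusted p under 0.05 there were 4 of the 31 with edgeR, all identity genes with negative values, 4 with DESeq2 and 12 with limma voom. With edgeR this held for 5.97% of all genes, 1.94% with negative values. It held for 6.82% of all genes with DESeq2 and 8.71% with limma voom. The smallest p were those of Mfge8 (-0.62, SE 0.24, edgeR adjusted p 0.78) and Slc1a3 (-0.70, SE 0.27, edgeR adjusted p 0.802). All 24 identity genes had negative values, with a median of -0.46, against -0.05 over all genes tested. The reactive genes had 4 above and 3 below 0, with a median of 0.23. That median was -0.58 without animal C, -0.23 without I and -0.090 with limma voom, while all 24 identity genes stayed below 0 in each of these. With the animal as a block, 13 of the 31 had an unadjusted p under 0.05, against 8.51% of all genes, and 0 passed. With 1 animal left out, this number was 1 without H, 2 without I, 3 without B, 3 without L, 5 without C, 7 without K and 12 without M, against 3.66% of all genes without H and 8.54% without M.

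Fitted separately, tau animals had 10 of the 31 genes past the threshold in IP against pre-IP, with 1 rise and 9 falls, against 20.7% of 18949 genes (10.4% higher and 10.3% lower). Slc1a2 rose by 0.79 (log2), and Fgfr3 (-1.56), Slc6a11 (-1.20), Atp1b2 (-1.13), Sox9 (-0.97), Acsbg1 (-0.76), Mfge8 (-0.71), Gja1 (-0.67), Mlc1 (-0.63) and Ndrg2 (-0.60) fell (edgeR, adjusted p 0.00774 to 0.0415). Without animal C, and without animal L, 0 of the 31 and 0 of all genes passed. The block gave 14, against 23.2% of all genes, adding Gjb6 (-0.62), Slc7a10 (-0.81), Agt (-0.52) and Gfap (-0.81). EYFP animals had 3 of the 31 past the threshold, against 6.38% of 19105 genes (3.96% higher and 2.41% lower), namely Slc1a2 (1.20), Fgfr3 (-0.90) and Slc6a11 (-0.79), with edgeR adjusted p 0.00688 to 0.0358. Leaving out H, I or K left 0, 0 or 1 of these calls. Over all genes, 0 of 19118, 84 of 19542 and 385 of 19221 then passed. With the block 7 passed, against 16.9% of all genes, among them Atp1b2 (-0.68), Glul (0.53), Slc4a4 (0.50) and Vim (0.56). The identity medians were -0.59 in tau and -0.07 in EYFP animals, and the reactive medians -0.13 and -0.21. The last of these was the value of Lcn2 (SE 0.85), a gene of few counts. The difference between treatments is the interaction above, which no gene passed.

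**Figure D4:**
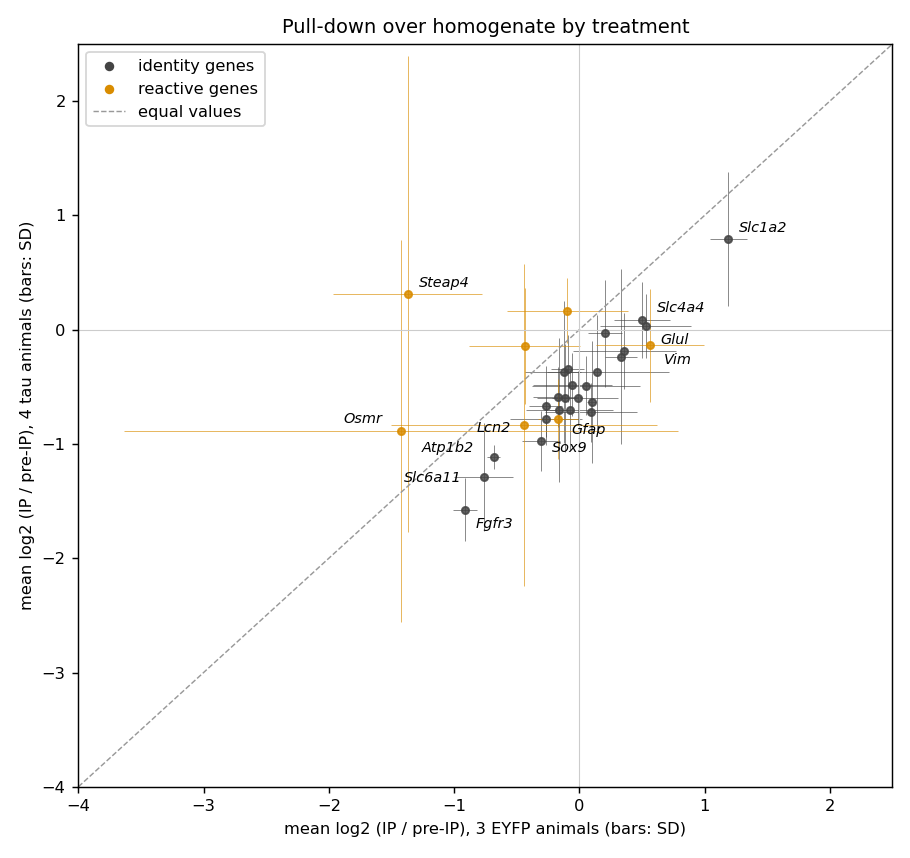
Mean log2 ratio of IP to pre-IP in the 4 tau animals (vertical) against the 3 EYFP animals (horizontal) for each of the 31 genes, with SD bars; the dashed line marks equal values. All 24 identity genes lie below that line, from Fgfr3 at the lower left to Slc1a2 at the upper right, and Steap4, Serpina3n, Cd44 and Osmr lie above it.

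Fgfr3 had the lowest and Slc1a2 the highest mean ratio of the identity genes in both treatments. Between them places differed, as for Acsbg1, with a mean of 0.09 ± 0.37 in EYFP and -0.72 ± 0.26 in tau animals. Over 24 identity genes, the mean ratio in tau animals and that in EYFP animals had a Pearson r of 0.955, and over all 31 members r was 0.562. These are different animals, but the genes share their length, base composition and capture chemistry, so r is a description. In 13 of the 31 genes the ratios of all 4 tau animals were below those of all 3 EYFP animals, against 5.65% of 18792 genes in that direction and 10.8% in either. They were Slc1a3, Gjb6, Sox9, Mlc1, Fgfr3, Slc7a10, Atp1b2, Agt, Acsbg1, Ndrg2, Mfge8, Gfap and Vim. Mlc1 encodes a membrane protein of astrocyte endfeet, Gjb6 a connexin, Slc7a10 a transporter of small neutral amino acids and Agt angiotensinogen.

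Per animal, the median log2 ratio of the identity genes was -0.97, -0.42, -0.39 and -0.38 in tau animals B, C, L and M and 0.12, -0.15 and -0.18 in EYFP animals H, I and K. Tau values lay below all EYFP values, both among the 4 animals with low library numbers and among the 3 with high ones. That of the reactive genes was -0.19, -0.25, -0.63 and 0.07 in tau and -0.14, -0.71 and -0.23 in EYFP animals, which overlapped. In B and I it was the ratio of Lcn2 and in C that of Steap4, genes of few counts, so it is no firm level of the class. The ratios of Gfap and Vim were lower in all tau than in all EYFP animals. Those of Serpina3n, Lcn2, Osmr, Cd44 and Steap4 overlapped. Reactive minus identity came to 0.78, 0.17, -0.24 and 0.45 in tau and -0.26, -0.56 and -0.06 in EYFP animals, with means of 0.29 ± 0.43 (SD, n = 4) and -0.29 ± 0.25 (SD, n = 3). The treatments overlapped, and the mean over all 7, 0.04 ± 0.46 (SD), pools means of opposite sign. Noradrenergic genes had medians of 4.40, 3.39, 3.17 and 1.67 in tau and 0.61, 0.75 and 0.79 in EYFP animals. Animal B had the highest noradrenergic and the lowest identity median of all 7.

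**Figure D5:**
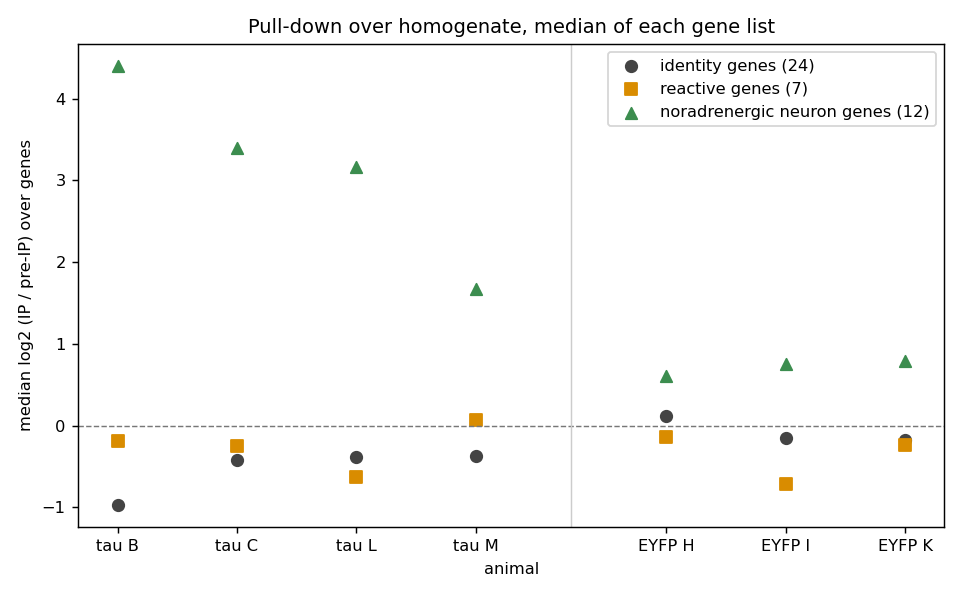
Median log2 ratio of IP to pre-IP per animal over the 24 identity genes, the 7 reactive genes and 12 genes of noradrenergic neurons. Identity medians of tau animals (-0.97 to -0.38) lie below those of EYFP animals (-0.18 to 0.12). Reactive medians overlap, and noradrenergic medians are above 0 in every animal. The reactive median is the ratio of Lcn2 in B and I and of Steap4 in C, genes of few counts.

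Further astrocyte genes outside the 31 were measured in the same fits. Of 38 other identity genes, 3 rose and 10 fell in IP against pre-IP, with a median of -0.22. Over all genes 31.0% passed, 16.3% higher and 14.7% lower, so the 13 of 38 were near that share. Id4, a regulator of neural stem cells and astrocytes, rose by 0.94 (SE 0.16, edgeR adjusted p 0.000502), while Tril fell by 0.93 (SE 0.18, edgeR adjusted p 0.00114) and Lfng fell by 0.86 (SE 0.19, edgeR adjusted p 0.0032). In tau against EYFP IP none passed, and 38 of 38 were below 0 with a median of -0.47. The phagocytic receptor gene Mertk had the smallest p (-1.42, SE 0.42, edgeR adjusted p 0.318). In pre-IP the median was -0.02 and Grin2c had the smallest p (-0.52), and in the interaction Phkg1 had it (-1.06, edgeR adjusted p 0.606).

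Of 36 other reactive genes, 34 were tested, and 3 rose and 6 fell in IP against pre-IP, with a median of -0.03, a share of 9 in 34 that was also near the 31.0% of all genes. Il6st, which encodes the gp130 subunit that partners Osmr, fell by 0.68 (SE 0.13, edgeR adjusted p 0.00102). S100a10 rose by 1.59 (SE 0.41, edgeR adjusted p 0.00775) and Tm4sf1 by 0.64 (SE 0.17, edgeR adjusted p 0.0087). In tau against EYFP IP the median was -0.32 with 22 of 34 below 0, and S100a10 had the smallest p (2.33, SE 0.50, edgeR adjusted p 0.318). In pre-IP the median was 0.03, with Psmb8 at 0.44 (edgeR adjusted p 1.0), and in the interaction S100a10 stood at 2.22 (SE 0.55, edgeR adjusted p 0.44).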

How the data were processed

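Per the labels, polyadenylated RNA from brainstem IP and pre-IP fractions was sequenced after SMART-Seq v4 and Nextera XT library preparation. The authors deposited raw read counts per gene, and the submitters' processing notes name FastQC, Trim Galore, STAR and featureCounts with GRCm38 and mm10. The use of strand is not given in the sources used here. An RNA integrity score and an RNA concentration per library were read from the deposited sample sheet.

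Tests on these counts were made with edgeR 4.0.16 (quasi-likelihood, R 4.3.3), with the filterByExpr filter, TMM scaling (a trimmed mean of log ratios), Benjamini-Hochberg adjustment over all genes and a threshold of 0.05, and were checked on simulated counts. The SE is the fold change (log2) divided by the root of F. IP against pre-IP was fitted with treatment as a term, and each treatment comparison within its own fraction. Ratios per animal are differences of log2 CPM with TMM scaling and a prior count of 2, while levels in CPM use library totals. The 2 fractions pair by animal, and their deviations correlated at r = 0.15 to 0.40 over 18792 genes. Other tools were DESeq2 1.42.0 and limma 3.58.1.

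Per-sample values are given for the 7 reactive genes, the 3 identity genes with the highest and the 3 with the lowest fold change of IP against pre-IP, the 2 members with the smallest p in each direction of a treatment comparison and of the interaction, and the 3 with the highest level per length. The members and lists were chosen with earlier results of these data known. Osmr, Lcn2 and Steap4 had at most 108 counts in a library, which limits their precision.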

Additional observations from a re-analysis of the deposited data

Results flagged for a closer look

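Groups of 4 tau animals were examined for a library far from the other 3, by the gap to its nearest neighbour over the range of the group. Of 93 such groups, 8 stood out, at a threshold that chance passes in about 1 in 20 independent groups. These groups share the same 4 animals, and the ratios are made from the levels. The 8 can therefore not be set against that share. In 5 of the 8 the value was the log2 ratio of IP to pre-IP in animal B, while 0 of the groups of tau IP levels in CPM stood out. In that animal the pre-IP level of Slc1a2, Slc1a3 and Mfge8 was the highest of the 4 tau animals and the IP level the lowest. The ratio was -0.089 for Slc1a2 against 1.07 to 1.10 in the other tau animals, -1.43 for Slc1a3 against -0.39 to -0.35, and -1.22 for Mfge8 against -0.56 to -0.49. For Gfap it was -1.30 against -0.65 to -0.55, and for Vim -0.87 against 0.07 to 0.18. RNA in the IP library of animal B was at 0.1 ng per microlitre, the lowest of 14, and the noradrenergic genes of animal B had the highest median ratio, 4.40. The part of either in these values was not tested.

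In tau pre-IP libraries, Ntsr2 was low in animal C at 241.9 CPM against 297.3 to 303 CPM, Cbs was high in animal M at 41.2 CPM against 25.1 to 26.7 CPM, and Steap4 was low in animal B at 0.17 CPM against 0.37 to 0.38 CPM.

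For Slc1a3 the log2 ratio of IP to pre-IP was below 0 in all 4 tau animals (mean -0.63 ± 0.53 SD) and above 0 in all 3 EYFP animals (mean 0.10 ± 0.04 SD). The sign in animal H rests on TMM scaling, since its CPM by library totals was 76.57 in pre-IP and 76.51 in IP. The interaction that tests the difference between treatments was -0.70 (SE 0.27, unadjusted p 0.0207, edgeR adjusted p 0.802).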

How the results depend on the processing

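The 31 genes were refitted under each other setting in the 6 comparisons, and of 2077 values of single genes 1885 kept their direction and their side of the threshold, 42 lost and 36 gained the threshold, and 114 changed sign, 56 of these for tau against EYFP in pre-IP. Between tau and EYFP, in IP, in pre-IP and in the interaction, the count of genes passing was 0 in every setting run. For IP against pre-IP it was 8, and 5 to 10 with 1 animal left out. In tau animals alone it was 10, and 0 to 14 with 1 animal left out. In EYFP animals alone it was 3, and 0 to 1 with 1 animal left out, 5 with DESeq2 and 7 with the animal as a replicate block. The calls over all genes moved as well. They were 5828 for IP against pre-IP, and 4291 to 5920 with 1 animal left out. In tau animals they were 3916, and 0 to 3866 with 1 left out. In EYFP animals they were 1218, and 0 to 385 with 1 left out, 2292 with DESeq2 and 3227 with the block. The block gave 11 for IP against pre-IP, 14 in tau animals and 0 for the interaction, and the calls it changed are named in the report. Slc1a2, Fgfr3, Slc6a11, Atp1b2 and Sox9 passed in IP against pre-IP without any 1 animal. The cause of the changes was not tested.

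Values that changed sign had not passed the threshold. With 1 animal left out, the log2 fold change of IP against pre-IP ran from -0.026 to 0.23 for Aqp4, -0.083 to 0.15 for Aldoc, -0.0043 to 0.14 for Serpina3n and -0.86 to 0.31 for Steap4. Tau against EYFP in IP ran from -0.33 to 0.088 for S100b, -0.39 to 0.79 for Lcn2, -0.44 to 0.69 for Osmr and -0.14 to 0.28 for Cd44. In pre-IP, 14 of 24 identity and 5 of 7 reactive genes had both signs, among them Acsbg1 from -0.0086 to 0.56, Cbs from -0.17 to 0.31 and Mlc1 from -0.093 to 0.36. There it ran from -0.089 to 0.37 for Gfap, -0.032 to 0.23 for Vim, -0.029 to 0.38 for Serpina3n, -0.27 to 0.15 for Osmr and -0.57 to 0.23 for Steap4. The interaction ran from -0.58 to 0.72 for Osmr. With limma voom, Steap4 was -0.95 for IP against pre-IP and 0.23 for tau against EYFP in pre-IP. Osmr and Cd44 were -0.11 and -0.25 for tau against EYFP in IP, and -0.078 and -0.090 for the interaction. With the replicate block Steap4 was -0.56 for IP against pre-IP. With the library number range as a covariate Lcn2 was -0.12 in IP, and with the sex label as a covariate Steap4 was 0.13 in pre-IP. The counts of M went against its sex label, so that covariate does not follow sex by counts. With means in place of medians, reactive minus identity over all 7 animals was -0.09 ± 0.65 (SD).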
